A study of Mus musculus with 8 samples.

Results

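The anaphase-promoting complex, or APC/C, is the large ubiquitin ligase of mitotic exit, and 10 of its subunit genes were followed in lung tumors with and without *Setd2* inactivation: *Anapc1*, *Anapc2*, *Anapc4*, *Anapc5*, *Anapc7*, *Anapc10*, *Cdc16*, *Cdc23*, *Cdc26* and *Cdc27*. The set was chosen by a measured value, the higher *Anapc4* level in the *K-Setd2KO* tumors, and the other 9 genes were added because their proteins belong to the same complex. All 10 were found by gene symbol among 48709 genes of the count table, and all 10 were among the 14929 genes left after the filter on low counts. The question was whether the higher level of *Anapc4* was shared by the other subunits.

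The samples were 8 lung tumors from mice of mixed background, which the labels call *K* and in which tumors start once Cre is present. All tumors were started by endotracheal delivery of the lentivirus LentiCRISPRv2Cre, which carries Cas9, Cre and a guide RNA. In the 4 *K-Ctrl* tumors the guide was directed against *GFP*, and in the 4 *K-Setd2KO* tumors it was directed against *Setd2*, which encodes the methyltransferase that trimethylates lysine 36 of histone H3. Whole tumors were frozen and sequenced as poly(A) RNA, so each library also holds RNA of the stroma and of any cell that escaped editing, and neither mouse age nor the mouse of origin of each tumor is given in the labels.

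The APC/C attaches ubiquitin to securin and to the mitotic cyclins, and their destruction by the proteasome lets sister chromatids separate and lets the cell leave mitosis. Its subunits form a platform, a catalytic module built on a cullin and a RING protein, and an arc of proteins with tetratricopeptide (TPR) repeats that holds the coactivator. *Anapc4* encodes a large platform subunit that sits with the products of *Anapc1* and *Anapc5* at the base of the complex.

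*Anapc4* lies on chromosome 5 of GRCm38 at chr5:52834012-52867797 on the plus strand, where the annotation behind the counts joins its exons into 29 blocks of 6081 bases in all. No other annotated gene overlapped it. Its promoter, read from RefSeq (GRCm38.p6, chr5:52833885-52834184, plus strand, 250 bases before to 50 after the start), is shown first, because the set was chosen by *Anapc4*. The promoters of *Anapc7* (chr5:122422194-122422493, plus strand) and *Anapc1* (chr2:128687346-128687645, minus strand) follow it, since these genes had the highest and the lowest fitted difference among the other 9 subunits. Capitals mark every match, on either strand, to 7 short motifs: the hypoxia response core (ACGTG or GCGTG), the CCAAT box (CCAAT), the cell cycle element CHR (TTTGAA), an ETS site (CCGGAAG), a YY1 site (ATGGCGG), the GC box (GGGCGG) and the TATA box (TATAAA).
Anapc4: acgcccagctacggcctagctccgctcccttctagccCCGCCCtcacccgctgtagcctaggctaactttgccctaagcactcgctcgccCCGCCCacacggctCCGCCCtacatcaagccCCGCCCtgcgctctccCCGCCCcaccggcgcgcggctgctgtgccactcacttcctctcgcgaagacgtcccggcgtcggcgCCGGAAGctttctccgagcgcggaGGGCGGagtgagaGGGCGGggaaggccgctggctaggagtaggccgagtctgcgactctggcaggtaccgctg
Anapc7: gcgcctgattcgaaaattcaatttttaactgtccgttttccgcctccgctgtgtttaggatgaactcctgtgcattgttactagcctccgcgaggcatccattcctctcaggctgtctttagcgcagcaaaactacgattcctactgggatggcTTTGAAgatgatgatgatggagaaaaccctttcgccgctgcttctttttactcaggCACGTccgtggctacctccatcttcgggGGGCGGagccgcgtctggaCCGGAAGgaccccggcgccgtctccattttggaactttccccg
Anapc1: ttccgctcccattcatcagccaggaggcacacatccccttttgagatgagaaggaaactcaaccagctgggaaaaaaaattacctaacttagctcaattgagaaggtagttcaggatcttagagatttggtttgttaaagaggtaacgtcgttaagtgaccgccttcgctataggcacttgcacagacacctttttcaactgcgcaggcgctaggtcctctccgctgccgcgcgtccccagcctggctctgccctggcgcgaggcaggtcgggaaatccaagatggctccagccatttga
In the *Anapc4* promoter the capitals mark 7 GC boxes and 1 ETS site, at position -47 from the start. Of 32851 mouse promoters of the same length, 35.7% held a GC box and 0.627% held at least 7. The window was 70.3% G and C with 34 CpG dinucleotides, against medians of 52.7% and 7 over all promoters. The *Anapc7* promoter held 1 hypoxia response core, 1 CHR, 1 ETS site and 1 GC box, and the *Anapc1* promoter held none of the 7 motifs. No marked match overlapped another. The *Anapc7* window lies inside the gene as counted, which starts at chr5:122421693.

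Promoters of 9 of the 10 subunits were read, with 2 start sites for *Anapc10*, whose windows overlap (chr8:79711513-79711812 and chr8:79711599-79711898). Among these 10 windows, 7 held a hypoxia response core (43.8% of all promoters), 4 a CCAAT box (37.4%), 4 an ETS site (8.86%), 4 a GC box (35.7%), 3 a YY1 site (4.05%), 1 a CHR (17.9%) and 0 a TATA box (13.6%). Both windows of *Anapc10* held a hypoxia response core, a CCAAT box and a YY1 site. Those counts therefore include this gene by both. The ETS site was found in *Anapc2*, *Anapc4*, *Anapc7* and *Cdc16*. These matches describe the letters only.

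Levels are given as CPM, that is, counts relative to the library total times 1e+06, scaled by the trimmed mean of M-values (TMM), in order of replicate number, and differences are log2 fold changes of *K-Setd2KO* over *K-Ctrl* from 1 edgeR fit over all tested genes. Over the 14929 genes, 12.7% passed the adjusted threshold of 0.05 in either direction, 4.97% as higher and 7.74% as lower in *K-Setd2KO*. The CPM of the 4 tumors of each group did not overlap for 20.3% of the genes, and 29.9% had an unadjusted p below 0.05. The median log2 fold change was 0.03. The least deep library, *K-Setd2KO* replicate 4, held 5806599 counts, and the deepest, *K-Ctrl* replicate 3, held 21290402.

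*Setd2* itself, the target of the guide, gave overlapping groups. It stood at 152.7, 137.8, 132.1 and 137.6 CPM in *K-Ctrl* and at 145.0, 121.3, 123.8 and 152.7 CPM in *K-Setd2KO*, with a log2 fold change of -0.05 (95% interval -0.31 to 0.21, edgeR adjusted p = 0.824). Gene counts do not show small insertions and deletions, so these values do not check the labels.

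The *K-Ctrl* tumors had *Anapc4* levels of 101.3, 112.6, 94.0 and 91.4 CPM, whereas those of the *K-Setd2KO* tumors were 227.3, 208.9, 210.2 and 228.7 CPM. All 4 *K-Setd2KO* tumors were above all 4 *K-Ctrl* tumors, and the lowest of the former was 1.86 times the highest of the latter. The group means were 99.8 ± 9.50 and 219 ± 10.7 CPM (SD, n = 4 and 4), a fitted ratio of 2.19 and a log2 fold change of 1.13 (SE 0.109). These levels rested on 1024 to 4426 reads per tumor. Because *Anapc4* was selected on this contrast, no test is given for it. Among all tested genes, 566 had a larger log2 fold change and 15.6% had a larger absolute one.

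The sex of the tumors, read from *Xist* and Y-linked genes, was unevenly spread over the groups (1 female in *K-Ctrl*, 3 in *K-Setd2KO*), and the values are given by sex as a description, with 1 tumor in an arm of each sex. The female *K-Ctrl* tumor had 112.6 CPM and the female *K-Setd2KO* tumors 208.9 to 228.7 CPM. The male *K-Ctrl* tumors had 91.4 to 101.3 CPM and the male *K-Setd2KO* tumor 210.2 CPM.

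**Figure D1:**
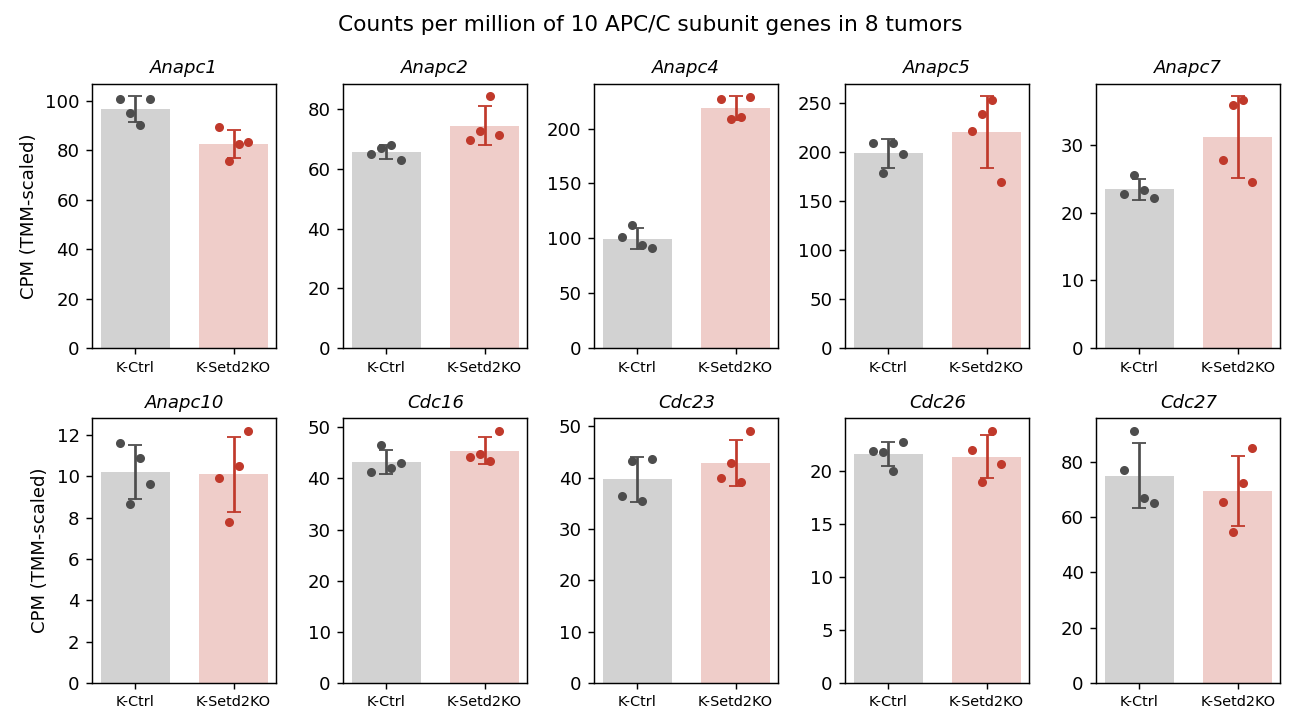
TMM-scaled CPM (y axis, from 0) of the 10 APC/C subunit genes in 4 *K-Ctrl* (grey) and 4 *K-Setd2KO* (red) tumors; points are tumors, bars are means and whiskers are 1 SD. The *Anapc4* points of the 2 groups are widely apart (91.4 to 112.6 against 208.9 to 228.7 CPM), those of *Anapc1* and *Anapc2* are narrowly apart, and those of the other 7 genes overlap.

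None of the other 9 subunits passed the test across all genes (0 of 9, against 12.7% of all tested genes). Their log2 fold changes ran from -0.23 for *Anapc1* to 0.41 for *Anapc7*, with a median of 0.07 beside 0.03 for all tested genes, and 5 were positive and 4 negative. Of the 9, 1 had an unadjusted p below 0.05 in edgeR, and DESeq2 and limma voom called 0 of 9 as well. Groups did not overlap for 2 of the 9, *Anapc1*, lower, and *Anapc2*, higher, against 20.3% of all tested genes. The highest upper limit of their 95% intervals was 0.78 and the lowest lower limit was -0.49. The difference between *Anapc4* and the other subunits was not tested, since *Anapc4* was chosen by its value.

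The 2 platform partners of *Anapc4* took opposite signs. *Anapc1*, the largest subunit, stood at 100.8, 94.9, 90.2 and 100.8 CPM in *K-Ctrl* and at 89.4, 75.5, 82.6 and 83.2 CPM in *K-Setd2KO*. The *K-Setd2KO* tumors were all below the *K-Ctrl* tumors by a narrow margin, with a log2 fold change of -0.23 (SE 0.101, 95% interval -0.45 to 0.0027, edgeR adjusted p = 0.172). *Anapc5*, a TPR protein of the platform, stood at 208.6, 178.1, 209.1 and 197.5 CPM in *K-Ctrl* and at 220.7, 237.9, 252.5 and 168.8 CPM in *K-Setd2KO*. The groups overlapped, since *K-Setd2KO* replicate 4 was the lowest of all 8 tumors (log2 fold change 0.15, 95% interval -0.17 to 0.47, edgeR adjusted p = 0.517).

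*Anapc2*, the cullin of the catalytic module, stood at 64.9, 66.9, 68.2 and 62.9 CPM in *K-Ctrl* and at 69.8, 72.7, 84.4 and 71.4 CPM in *K-Setd2KO*. Every *K-Setd2KO* tumor was above every *K-Ctrl* tumor, but the gap between the groups was small beside the distance of *K-Setd2KO* replicate 3 from its group. The log2 fold change was 0.18 (SE 0.105, 95% interval -0.05 to 0.42, edgeR adjusted p = 0.275). *Anapc11*, the RING protein that binds the cullin and was not among the 10 members, had means of 28.9 ± 3.07 and 25.8 ± 1.77 CPM (SD, n = 4 and 4) and a log2 fold change of -0.16 (edgeR adjusted p = 0.435).

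Of the 4 TPR proteins of the arc, *Anapc7* had the largest difference. It stood at 22.7, 25.6, 23.3 and 22.1 CPM in *K-Ctrl* and at 27.7, 35.9, 36.6 and 24.5 CPM in *K-Setd2KO*. *K-Setd2KO* replicates 2 and 3 were above every *K-Ctrl* tumor by a wide margin and replicate 4 lay within the *K-Ctrl* range. The log2 fold change of 0.41 (SE 0.161, 95% interval 0.05 to 0.78) had an unadjusted p of 0.0289 in edgeR and an adjusted p of 0.120.

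*Cdc27*, a TPR subunit that docks the coactivators, stood at 76.9, 91.2, 66.9 and 65.3 CPM in *K-Ctrl* and at 65.5, 54.8, 72.4 and 85.2 CPM in *K-Setd2KO*. Both groups spread widely and overlapped (log2 fold change -0.11, 95% interval -0.49 to 0.26, edgeR adjusted p = 0.686). *Cdc16*, in the middle of the arc, had means of 43.2 ± 2.40 and 45.4 ± 2.64 CPM (SD, n = 4 and 4) and overlapping groups (log2 fold change 0.07, 95% interval -0.17 to 0.31, edgeR adjusted p = 0.695). *Cdc23*, the TPR subunit next to the platform, had means of 39.7 ± 4.39 and 42.8 ± 4.49 CPM (SD, n = 4 and 4), also with overlap (log2 fold change 0.11, 95% interval -0.19 to 0.40, edgeR adjusted p = 0.621). Reads of *Cdc23* may be uncertain, since 1259 of its exon bases are shared with *Kif20a* on the opposite strand and the strand setting of the counting is not given.

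*Anapc10*, which helps the coactivator to hold the substrate's degron, was the least abundant member. It stood at 11.6, 8.66, 10.9 and 9.64 CPM in *K-Ctrl* and at 9.91, 7.80, 10.5 and 12.2 CPM in *K-Setd2KO*, on 71 to 237 reads per tumor. The groups overlapped fully, with a log2 fold change of -0.02 (95% interval -0.47 to 0.43, edgeR adjusted p = 0.955), and its interval was the widest of the 10. *Cdc26*, a small protein that steadies *Cdc16*, had means of 21.6 ± 1.14 and 21.4 ± 2.05 CPM (SD, n = 4 and 4) and a log2 fold change of -0.02 (95% interval -0.31 to 0.28, edgeR adjusted p = 0.951).

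The remaining small subunits were read as a list of 4 genes outside the 10, and 0 of 4 passed the test. *Anapc13*, which binds the TPR arc, came nearest. It stood at 52.8, 44.4, 51.2 and 49.4 CPM in *K-Ctrl* and at 71.0, 69.5, 62.6 and 54.6 CPM in *K-Setd2KO*, without overlap. Its log2 fold change was 0.38 (SE 0.122, 95% interval 0.11 to 0.66, edgeR adjusted p = 0.0696), and without *K-Setd2KO* replicate 4 it passed the threshold (log2 fold change 0.45, edgeR adjusted p = 0.0496). The start of *Anapc13* shares 239 exon bases with *Cep63* on the opposite strand. *Anapc15*, which helps to turn over the checkpoint complex bound to the APC/C, was low, at means of 3.17 ± 0.696 and 3.62 ± 0.458 CPM (SD, n = 4 and 4). *Anapc15* also has a copy in the annotation, *Anapc15-ps*. *Anapc16* had means of 28.2 ± 4.40 and 28.3 ± 0.984 CPM (SD, n = 4 and 4).

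**Figure D2:**
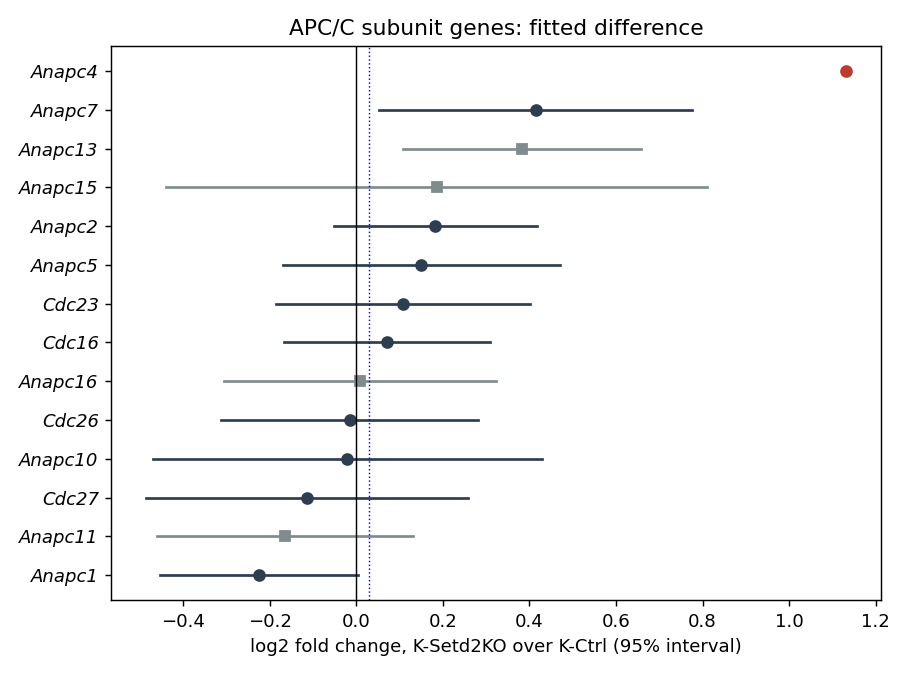
Fitted log2 fold changes, *K-Setd2KO* over *K-Ctrl* (x axis), for the 10 members (circles, *Anapc4* in red) and 4 further subunits (grey squares), with 95% intervals for all but *Anapc4*, in order of size; the dotted line is the median of all tested genes, 0.03. *Anapc4*, drawn without an interval because it was chosen by this value, is at 1.13, and the other 9 members lie between -0.23 and 0.41.

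As a description, the share of *Anapc4* in the summed level of the 10 genes was higher in every *K-Setd2KO* tumor. This share contains the *Anapc4* values by which the set was chosen, so it is no separate result. To compare genes, CPM was divided by exon length in kb. On this scale *Anapc4* made up 14.5%, 15.9%, 13.8% and 13.7% of the sum of the 10 genes in *K-Ctrl*, against 27.0%, 24.9%, 23.4% and 27.7% in *K-Setd2KO*. The other 9 together summed to 97.1 ± 1.54 CPM per kb in the control tumors and 104 ± 6.47 CPM per kb in the knockout tumors (SD, n = 4 and 4). Their mean log2 CPM was 0.06 higher in *K-Setd2KO*, where its SD over tumors was 0.0685, against 0.0309 in *K-Ctrl*. In bulk tumors, fewer cells of a type and less RNA per cell cannot be told apart, and the values are of messenger RNA, not of protein or assembled complex.

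**Figure D3:**
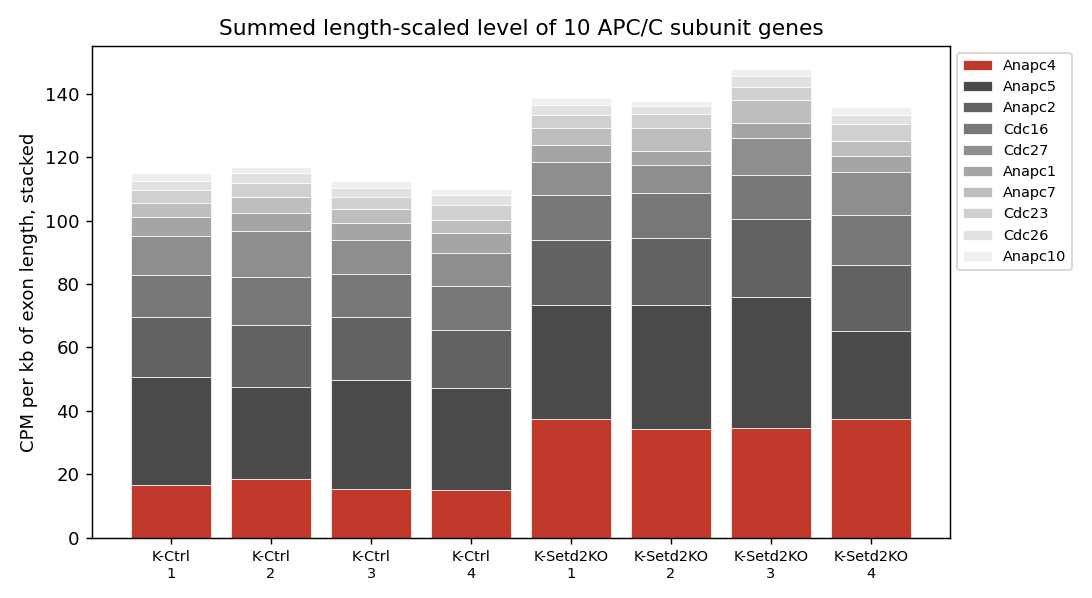
CPM per kb of exon length (y axis) of the 10 members, stacked for each of the 8 tumors, with *Anapc4* in red at the base. The red part is 13.7% to 15.9% of the stack in *K-Ctrl* and 23.4% to 27.7% in *K-Setd2KO*, and the grey remainder averages 97.1 and 104 CPM per kb.

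In *K-Ctrl* the order of levels per kb was *Anapc5* (32.4), *Anapc2* (19.1), *Anapc4* (16.4), *Cdc16* (13.9), *Cdc27* (12.02), *Anapc1* (5.78), *Anapc7* (4.58), *Cdc23* (4.18), *Cdc26* (3.01) and *Anapc10* (2.11). Neighbours in this order whose tumors overlapped were *Anapc2* and *Anapc4*, *Anapc4* and *Cdc16*, *Cdc16* and *Cdc27*, and *Anapc7* and *Cdc23*. In *K-Setd2KO* the mean of *Anapc4* (36.0, tumors from 34.4 to 37.6) was second and its tumors overlapped those of *Anapc5* (36.0, tumors from 27.6 to 41.3), while *Anapc2* (21.7) was below both. *Anapc7* (6.09) and *Anapc1* (4.95) exchanged places, with overlapping tumors.

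Genes that work with the APC/C were read from 5 further lists. The 2 coactivators, which bring substrates to the complex, did not pass the test. *Cdc20*, the coactivator of early mitosis, stood at 11.0, 10.5, 9.83 and 15.5 CPM in *K-Ctrl* and at 15.9, 6.20, 6.37 and 16.6 CPM in *K-Setd2KO*. The *K-Setd2KO* tumors lay on both sides of the controls, replicates 2 and 3 below and replicates 1 and 4 above (log2 fold change -0.06, edgeR adjusted p = 0.931). *Fzr1*, which encodes the coactivator Cdh1 of late mitosis and G1, had a log2 fold change of 0.24 (edgeR adjusted p = 0.314). Of 3 ubiquitin-conjugating enzymes 0 passed the test, and the largest difference was that of *Ube2c*, which starts ubiquitin chains on APC/C substrates (means 6.67 ± 1.48 and 3.62 ± 2.30 CPM, SD, n = 4 and 4, log2 fold change -0.90, edgeR adjusted p = 0.253). Unadjusted p was below 0.05 for 0 of these 5 genes and for 1 of the 4 small subunits, *Anapc13*, and neither DESeq2 nor limma voom called any of the 9.

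Among 9 genes of the spindle checkpoint and other inhibitors, 1 fell and 0 rose, beside 7.74% of all tested genes that fell. The gene that fell was *Bub1b*, which encodes the checkpoint protein BubR1 that holds the APC/C inactive. It stood at 18.8, 21.7, 20.5 and 19.3 CPM in *K-Ctrl* and at 11.1, 7.73, 9.23 and 12.8 CPM in *K-Setd2KO*, without overlap, for a log2 fold change of -0.98 (SE 0.186) and an edgeR adjusted p of 0.0135. *Mad2l1*, *Bub3*, *Bub1*, *Mad1l1*, *Ttk*, *Mad2l1bp*, *Fbxo5* and *Trip13* did not pass in edgeR, with log2 fold changes from -1.02 to 0.21. Of these, *Bub1* was called lower by limma voom, and by edgeR without *K-Setd2KO* replicate 4.

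The known substrates had the lowest median of the lists. Of 22 genes 2 fell and 0 rose, beside 7.74% of all tested genes that fell. With DESeq2 7 of the 22 were called lower, beside 10.6% of all genes it tested, and with limma voom 4, beside 7.21%. The median log2 fold change was -0.83, 21 of the 22 were negative, and for 11 the *K-Setd2KO* tumors lay below all *K-Ctrl* tumors, beside 11.2% of all tested genes without overlap in that direction. *Rrm2*, a subunit of ribonucleotide reductase, fell from 22.5, 21.8, 15.3 and 18.0 CPM to 9.40, 5.58, 7.75 and 10.1 CPM, a log2 fold change of -1.24 (SE 0.229) with an edgeR adjusted p of 0.0124. *Gmnn*, which encodes geminin, the inhibitor of origin licensing, fell from 13.7, 13.4, 16.3 and 12.9 CPM to 7.29, 5.97, 10.4 and 6.16 CPM, a log2 fold change of -0.92 (SE 0.222) with an edgeR adjusted p of 0.0292. The call of *Gmnn* was lost when any of 5 tumors was left out, *K-Ctrl* replicates 1, 2 and 3 and *K-Setd2KO* replicates 1 and 4, with log2 fold changes from -0.94 to -0.84 and edgeR adjusted p from 0.0589 to 0.0935. It was also lost with sex as a term in the fit (log2 fold change -0.75, edgeR adjusted p = 0.0733).

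The low substrate values were uneven among the *K-Setd2KO* tumors. The mean log2 CPM of the 22 genes, relative to the *K-Ctrl* mean, was -0.33, -1.45, -1.14 and -0.23 in *K-Setd2KO* replicates 1 to 4, and the *K-Ctrl* tumors lay between -0.15 and 0.08. Replicates 2 and 3 were thus far lower than replicates 1 and 4, while *Anapc4* was at 208.9 and 210.2 CPM in the former and at 227.3 and 228.7 CPM in the latter. *Mki67*, a general marker of cycling cells, was likewise lowest in *K-Setd2KO* replicates 2 and 3. It stood at 96.4, 101.8, 90.2 and 96.8 CPM in *K-Ctrl* and at 63.4, 26.1, 29.3 and 64.0 CPM in *K-Setd2KO* (log2 fold change -1.08, edgeR adjusted p = 0.0449). Its call was lost without any single *K-Ctrl* tumor and without *K-Setd2KO* replicate 2 or 3 (edgeR adjusted p from 0.0545 to 0.0984). With the sex term the edgeR adjusted p was 0.0527, and without the low-count filter it was 0.0708. In all these fits the log2 fold change stayed between -1.34 and -0.89. Messenger RNA of substrates is made mostly in cycling cells, and the part of the number of cycling cells in these values was not tested.

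Of 12 genes of separase and cohesin, which hold or cut the ties between sister chromatids, 1 fell and 0 rose, again beside 7.74% of all tested genes that fell. *Pds5b*, a cohesin regulator, fell from 99.5, 82.5, 85.5 and 90.0 CPM to 66.2, 57.7, 51.5 and 58.2 CPM, without overlap, for a log2 fold change of -0.61 (SE 0.117) and an edgeR adjusted p of 0.0138. *Sgo1*, which encodes shugoshin, the protector of centromeric cohesin, stood at 3.08, 3.87, 2.59 and 2.41 CPM in *K-Ctrl* and at 0.98, 0.76, 1.11 and 2.22 CPM in *K-Setd2KO*, without overlap. It did not pass in the reported fit (log2 fold change -1.29, edgeR adjusted p = 0.0686), but was called lower by DESeq2 and limma voom, and by edgeR with at least 10 counts in every tumor or without *K-Setd2KO* replicate 4. *Espl1*, which encodes separase, had means of 7.37 ± 3.02 and 5.47 ± 1.47 CPM (SD, n = 4 and 4) and did not pass (log2 fold change -0.43, edgeR adjusted p = 0.445). Over all lists 4 of 52 genes passed, all of them lower, beside 7.74% of all tested genes that fell. DESeq2 called 10 of the 52 lower and limma voom 8, beside the shares of all genes given above for these tools. Without *K-Setd2KO* replicate 4, edgeR called 6 lower and 1 higher, beside 5.67% of all tested genes called lower.

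**Figure D4:**
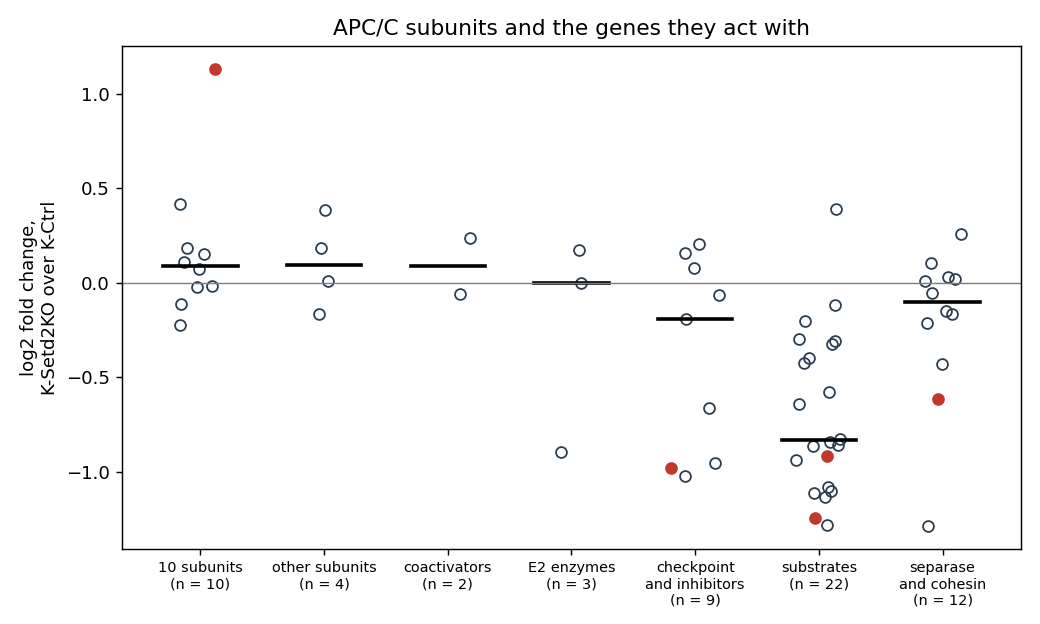
Log2 fold change, *K-Setd2KO* over *K-Ctrl* (y axis), of each gene of the 10 subunits and the 6 further lists. Filled red points other than *Anapc4* have an edgeR adjusted p under 0.05, open points do not, and black bars are list medians. *Anapc4* is the red point at 1.13, and its colour is not to be read as a test, since it was chosen by this value. The substrates lie mostly below 0, with a median of -0.83, and the 9 subunits other than *Anapc4* lie between -0.23 and 0.41.

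The region around *Anapc4* was read for genes that moved with it. Within 500 kb on either side lay 25 genes, of which 13 were tested, with a median log2 fold change of 0.19. Of the 13, 1 rose and 1 fell, beside 4.97% and 7.74% of all tested genes. The nearest tested gene before it, *Zcchc4*, ends 9347 bases from its start and had a log2 fold change of 0.19 (edgeR adjusted p = 0.688). The nearest after it, *5033403H07Rik*, lies 105215 bases away, and its log2 fold change was 0.59 (edgeR adjusted p = 0.262). The gene that rose was *Sel1l3*, at 37.9, 45.9, 43.6 and 69.3 CPM in *K-Ctrl* and 92.7, 77.3, 69.0 and 110.9 CPM in *K-Setd2KO* (log2 fold change 0.83, edgeR adjusted p = 0.0373), with groups that overlapped narrowly. *Sepsecs*, which encodes an enzyme of selenocysteine synthesis, fell from 56.7, 54.7, 54.8 and 54.9 CPM to 33.9, 44.1, 43.4 and 28.8 CPM (log2 fold change -0.56, edgeR adjusted p = 0.0425).

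Both neighbour calls were lost under several alternatives, while the log2 fold change stayed between 0.69 and 1.04 for *Sel1l3* and between -0.65 and -0.46 for *Sepsecs*. That of *Sel1l3* was lost without *K-Ctrl* replicate 1, 2 or 3 or *K-Setd2KO* replicate 1 or 4 (edgeR adjusted p from 0.0761 to 0.105) and with the sex term (0.129). That of *Sepsecs* was lost without any tumor other than *K-Setd2KO* replicate 2 (edgeR adjusted p from 0.0544 to 0.101), with the sex term (0.121), with the replicate block (0.0774) and without the low-count filter (0.0647). On the whole of chromosome 5, 36 of 973 tested genes rose and 66 fell, beside 4.97% and 7.74% of all tested genes. The median log2 fold change of the chromosome was 0.06.

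Several other subunits share a start region with a gene on the opposite strand. The start sites of *Anapc2* and *Ssna1* are 40 bases apart, those of *Anapc10* and *Abce1* 80, those of *Cdc26* and *Prpf4* 155, and those of *Cdc27* and *Myl4* 43. The partners' log2 fold changes were 0.30 for *Ssna1*, -0.18 for *Abce1*, 0.22 for *Prpf4* and 0.16 for *Myl4*, and none passed the test (edgeR adjusted p from 0.267 to 0.906). *Anapc4* has no such partner within 1000 bases.

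Over the 8 tumors, the log2 CPM of *Anapc4* was most like that of 5 other genes among 9688 with a mean of at least 10 CPM. Their Pearson correlations with it, given as a description over 8 tumors that fall into the 2 groups, were 0.993 for *Pafah1b3*, 0.988 for *Kat2b*, 0.986 for *Thnsl2*, 0.984 for *Klhdc2* and 0.983 for *Sprtn*. *Kat2b*, which encodes a histone acetyltransferase, stood at 114.7, 133.5, 120.9 and 112.0 CPM in *K-Ctrl* and at 221.3, 199.7, 223.0 and 207.1 CPM in *K-Setd2KO*. *Klhdc2*, which encodes a substrate receptor of a cullin ligase, stood at 55.7, 57.2, 58.7 and 57.9 CPM and at 110.8, 109.7, 111.4 and 117.6 CPM. In both genes the groups were far apart beside the spread within them. That follows from their choice by likeness to *Anapc4*, itself chosen by its group difference. The other 9 subunits had correlations from -0.79 for *Anapc1* to 0.71 for *Anapc2*, which ranked 1290th of the 9688.

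Markers of the labelled tissue and of other cells were read beside these values. Over all tested genes 4.97% rose and 7.74% fell, the shares to set beside the marker counts below. The 10 markers of lung epithelium and alveolar type 2 cells were present in every tumor, with sums of 42360 to 63660 CPM in *K-Ctrl* and 51050 to 72610 CPM in *K-Setd2KO*, and 3 of 10 rose. Of 12 leukocyte markers 6 fell. Their median log2 fold change was -1.65, and their sums overlapped (6690 to 15590 and 6572 to 12230 CPM), but most of each sum was *Lyz2*, which alveolar type 2 cells also express. Without *Lyz2*, left out after the values were seen, the sums of the other 11 were 565 to 984.4 CPM in *K-Ctrl* and 198.9 to 261.9 CPM in *K-Setd2KO*, and did not overlap. *Ptprc*, the pan-leukocyte marker CD45, fell from 178.7, 346.9, 252.6 and 144.0 CPM to 61.3, 45.1, 57.3 and 54.1 CPM. Of 6 endothelial markers 2 fell (sums 434.5 to 1619 and 161.6 to 417.9 CPM), of 6 fibroblast markers 1 fell (sums 497.1 to 1121 and 141.4 to 583.4 CPM), and of 5 erythroid markers 0 passed (sums 150.4 to 805.1 and 76.4 to 202.2 CPM). The endothelial sums did not overlap between the groups either. The part of these cells in the values of *Anapc4* and of the other APC/C genes was not tested.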

How the data were processed

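RNA of 8 flash-frozen lung tumors, 4 *K-Ctrl* and 4 *K-Setd2KO*, was sequenced from paired ends after poly(A) library preparation with a stranded kit. The extraction text of the labels speaks of cell lines, and this was not resolved. The deposited values are raw counts per gene, which the authors made before deposit. STAR 2.5.2b, featureCounts 1.5.0-p1 and GRCm38.p4 are named in the submitters' processing notes. The annotation release and strand setting are not given in the sources used here. Identifiers were matched to GENCODE gene names (99.3% of 48709).

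Groups came from the labels, which do not say whether replicates came from separate mice, so p-values measure only the spread between these tumors. Counts were filtered by expression, scaled by TMM and tested with the quasi-likelihood method of edgeR 4.0.16 in R 4.3.3, with genotype as the only term, Benjamini-Hochberg adjustment over 14929 genes and a threshold of 0.05. Standard errors and 95% intervals came from the same fit. Levels per kb used the exon length of the count table. For the correlations, log2 CPM had a prior count of 2. Totals ran from 5806599 to 21290402 counts and were lowest in *K-Setd2KO* replicate 4. The part of depth in the precision of low genes was not tested.

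The 10 members and all gene lists were chosen with earlier results of these data known. Named were all members, all list genes that passed, the neighbours of *Anapc4* within 500 kb that passed or lay nearest on each side, the 5 genes most like *Anapc4*, *Setd2* and *Mki67*. Further list genes and the partners at shared start sites were named after their values were seen. The fit was tested on simulated data with large known fold changes and a common spread for all genes. That test does not bear on small differences such as those of the other subunits. Alternatives were other filters and scalings, DESeq2 1.42.0 (the tool of the study), limma voom 3.58.1, a sex term, a replicate block and leaving out each tumor. Protein sequences were not used here, and some items are not reported here.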

Additional observations from a re-analysis of the deposited data

Results flagged for a closer look

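Within each group of 4 tumors, every member and list gene was searched for a tumor far from the other 3 relative to the group's range by Dixon's test at the 95% level. Of 124 groups 5 held such a tumor, where chance gives about 1 in 20, or 6.2, and none was in the 10 members. *Anapc16* was at 26.86 CPM in *K-Setd2KO* replicate 1, against 28.75 to 28.89 CPM in the other 3. *Ube2s*, which extends ubiquitin chains for the APC/C, was at 12.35 CPM in *K-Ctrl* replicate 2 (others 17.49 to 18.16 CPM) and at 25.12 CPM in *K-Setd2KO* replicate 1 (others 15.75 to 17.17 CPM). *Pttg1*, which encodes securin, was at 11.02 CPM in *K-Ctrl* replicate 1, against 2.72 to 3.28 CPM in the other 3. *Rad21*, the cohesin subunit that separase cuts, was at 293.9 CPM in *K-Setd2KO* replicate 1, against 257.2 to 262.7 CPM. No call of the report concerns these 4 genes.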

How the results depend on the processing

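None of the 9 members other than *Anapc4* passed the threshold under any of 17 alternatives, which comprised 2 other filters, 3 other scalings, 2 other tests, the replicate block, the sex term and 8 leave-one-out fits. The log2 fold change of *Anapc4* stayed between 1.06 and 1.19. The median of the other 9 was 0.0223 with library totals alone, 0.0313 with the sex term and 0.0237 to 0.0994 with a tumor left out. Genes called over the table numbered 1237 with the sex term and 3211 with DESeq2, and 763 to 2058 with a tumor left out (938 without *K-Ctrl* replicate 1, 1126 without 2, 763 without 3, and 1011 without *K-Setd2KO* replicate 3), beside 1897 in the reported fit. The cause was not tested. With library totals alone 581 of the calls were higher and 1312 lower, in place of 742 and 1155.

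Of the 52 list genes, 10 passed with DESeq2 (10.6% of all genes it tested were lower), 8 with limma voom (7.21%) and 3 to 7 with a tumor left out (7 without *K-Setd2KO* replicate 4), in place of 4; all were lower except *Anapc13*. *Bub1b*, *Rrm2* and *Pds5b* passed under all 17. Among the 10 members, 4 further subunits and called genes named in the report, signs turned for 3 near 0; other list genes were not followed singly. *Anapc10* had 0.0828 with the sex term and -0.1229 to 0.0789 with a tumor left out. *Cdc26* had 0.0313 with the sex term and -0.0680 to 0.0335 with a tumor left out. *Anapc16* had -0.0259 with at least 10 counts in every tumor, -0.0391 with library totals alone, -0.0038 with DESeq2 and -0.05 to 0.12 with a tumor left out. With the replicate number as a block, 1341 genes were called, 0 of the 9 other subunits and 4 list genes. Same-numbered tumors did not deviate together (correlations -0.07, -0.03, 0.19 and -0.02), so the numbers were not taken as pairs. *Anapc10*, on 71 to 237 reads per tumor, had an interval of -0.47 to 0.43, and the parts of depth and of spread between tumors in it were not tested.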
